A study of Gallus gallus with 5 samples.

Results

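This account covers the genes that build, sulfate, carry and trim heparan sulfate and the related chains of proteoglycans in granulosa cells of the hen, the cell layer that surrounds the oocyte inside the follicle. The genes were chosen by their symbols: NDST, HS2ST, HS3ST, HS6ST, EXT1, EXT2, EXTL, GLCE, SULF1 and SULF2 for heparan sulfate, SDC1 to SDC4 and GPC1 to GPC6 for its carriers, CHSY, CHPF, DSE, UST and CHST for chondroitin, dermatan and other sulfated sugars, XYLT for the start of the chains, B3GAT for glucuronyltransferases, and TPST for sulfated tyrosines. The B3GAT genes with a row were grouped with the HNK-1 epitope, a sulfated sugar of adhesion molecules, and not with the chain linker. Of 24356 listed genes, 53 had such a symbol, and 48 of these had the mean of at least 10 normalized counts over the 5 libraries that was needed for testing. The tested genes of the whole table numbered 13305. Further family symbols that had been looked for, NDST2, HS3ST3B1, HS6ST3, EXTL1, B3GAT3, DSE, CHST4, CHST5, GPC2 and GPC6, matched no row and were not analysed here.

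The hens were Cobb 700 broiler breeders on either of 2 diets. FF hens (2 libraries) ate ad libitum and RF hens (3 libraries) stayed on restricted feed, in both cases for 6 weeks from 28 weeks of age. Each library came from a different hen, and held poly(A) RNA of granulosa cells pooled from 5 to 6 follicles of 6 to 8 mm. Per the study's methods, each diet had its own pen, FF hens were picked for sequencing because they carried an excess of preovulatory follicles and RF hens because their number was normal, and a further FF library was discarded after clustering, so diet, pen and follicle number cannot be told apart. Deposited values were counts per gene that the authors had divided by a DESeq2 size factor for each library and rounded to whole numbers. They summed to 25929234 to 29491091 per library. Fold changes (with their standard error, SE, and 95% interval) are FF minus RF on the scale of log2(normalized count + 1), which understates changes of genes at low levels. Tests used limma with Benjamini-Hochberg adjustment over all 13305 genes.

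Heparan sulfate is a long sugar chain that is built in the Golgi on a core protein. A short linker is started by a xylosyltransferase, EXT enzymes extend the chain, an NDST enzyme replaces acetyl by sulfate groups on part of its glucosamines, and an epimerase and O-sulfotransferases then act mainly on the regions that NDST has opened. The sulfate pattern sets which growth factors, receptors and protease inhibitors bind, and the SULF enzymes remove sulfates again outside the cell. Chondroitin and dermatan sulfate are built on the same linker by other enzymes. Proteoglycans with these chains are found in the basement membrane and between the granulosa cells of ovarian follicles, where hyaluronan and binding of growth factors have been studied mostly in mammals.

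The libraries carried the defining markers of granulosa cells. FSHR, FOXL2, GATA4 and AMH had between 3725 and 38730 normalized counts in every library, and the 8 markers of the list summed to 124875 to 178318 in FF hens and 90837 to 103203 in RF hens. Without INHA, the inhibin alpha subunit, the sums were 104456 and 87903 against 99811, 90580 and 87397 and overlapped. INHA had 73862 and 36972 in FF hens and 3392, 2980 and 3440 in RF hens, and CYP11A1, the first enzyme of steroid synthesis, had 11493 and 10837 against 1246, 869 and 564. Both mark maturing granulosa cells and lay apart between the diets in the same direction as the called genes below, and the part of maturation was not tested. AMH, with 21048 and 17336 in FF hens and 38052, 27826 and 23945 in RF hens, and WT1, with 1717 and 1311 against 2549, 3488 and 7223, had both FF libraries below every RF library. WT1 did not pass in limma, but the study listed it, by DESeq2, among the genes higher in RF hens. Of the 15 theca and stroma markers, 10 had their highest value in RF replicate 1, and the list summed to 8718 to 10759 in FF hens and 7415 to 12563 in RF hens. Of its 13 tested genes, 10 had a log2 fold change below 0, with a median of −1.66, 5 had both FF libraries below every RF library, and none passed the test. Over all tested genes, 49.0% had a log2 fold change below 0, 16.9% had both FF libraries below every RF library and 19.3% had both above. CYP17A1, needed for androgen synthesis in theca, had 1794 in RF replicate 1 and 73 to 207 elsewhere, and PDGFRA, a stromal receptor, was at 0 in both FF hens and at 56, 14 and 7 in RF hens. In the other direction, ACTA2 was the 1 gene of the list with both FF libraries above every RF library. It had 3429 and 4257 in FF hens and 1533, 1766 and 3402 in RF hens (log2 fold change 0.87). The 4 red blood cell markers that matched a row summed to 3636 to 3941 in FF hens and 1291 to 1615 in RF hens. These sums came mainly from ALAS2, an enzyme of heme synthesis. ALAS2 passed the test (log2 fold change 1.33, limma adjusted p = 0.0223), and the other 3 did not. The hemoglobin genes HBA1 and HBBA likewise had both FF libraries above every RF library, and SLC4A1 overlapped. HBA1 had 145 and 327 in FF hens and 41, 27 and 60 in RF hens, and HBBA had 114 and 269 against 41, 25 and 47. The study itself listed HBA1, by DESeq2, among the genes higher in FF hens. Of the other lists, white blood cell markers summed to 804 to 1152 in FF hens and 711 to 984 in RF hens. Without CD3E the sums were 300 and 287 against 517, 448 and 356. Of the 5 tested white blood cell genes, 3 were wholly below in FF hens. PTPRC was wholly above, with 140 and 91 against 69, 78 and 54. Endothelial markers summed to 4516 to 5173 and 3669 to 4767. Of the 6 tested, 4 had a log2 fold change below 0 and 2 above, with a median of −0.49. KDR was wholly below in FF hens, with 5 and 8 against 198, 21 and 32. The 2 above 0 were PECAM1 and EGFL7, at higher levels and with overlapping groups. PECAM1 had 1456 and 2649 against 1471, 1381 and 1318, and EGFL7 had 2955 and 2393 against 2709, 2068 and 2330. Oocyte markers summed to 1137 to 1527 and 1595 to 2756, and surface epithelium markers to 3385 to 4879 and 3232 to 4383. The oocyte sums did not overlap. All 8 tested oocyte marker entries had a log2 fold change below 0, with a median of −0.56, 3 were wholly below in FF hens, and none passed the test. ZAR1 has separate entries under different gene identifiers, and each was counted. Of the 5 tested surface epithelium markers, MSLN and CDH1 were wholly above in FF hens and KRT19 wholly below, and none passed the test. MSLN had 134 and 118 against 55, 54 and 36, CDH1 had 351 and 303 against 190, 197 and 281, and KRT19 had 341 and 234 against 710, 578 and 363. UPK3B, of the surface epithelium, was the single marker of these lists at 0 in every library. The part of other cell types in the results below was not tested, and in bulk RNA fewer cells of a type and less RNA per cell cannot be told apart.

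The sulfotransferase genes NDST1, TPST1, CHST12 and CHST8 were significantly higher in FF hens. These 4 were 8.33% of the 48 tested genes, where 0.842% of all tested genes passed an adjusted p of 0.05 in this direction. All 4 also passed with the study's further cut-offs, a change of more than 1 on the log2 scale and 200 or more normalized counts on average in either diet, which 0.699% of all tested genes passed upwards. None passed in the other direction in limma, where 0.241% of all tested genes did (0.15% with the study's cut-offs). The study's cut-offs were laid here on the limma adjusted p, whereas the study tested with DESeq2 and reported more genes in each direction. At an unadjusted p of 0.05, 9 of the 48 were higher and 7 lower in FF hens, or 18.8% and 14.6%, against 9.58% and 8.22% of all tested genes. The median log2 fold change of the 48 genes was 0.17, beside 0.01 for all tested genes, and no test was made here of the genes as a set. The genes had been chosen with earlier results of these data known, so these shares describe the list and cannot test it. From the same libraries, the study itself reported proteoglycan biosynthesis among the gene ontology terms enriched in its genes higher in FF hens. It did not name the genes of that term.

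NDST1 (ENSGALG00000004581) encodes the N-deacetylase and N-sulfotransferase of the heparan sulfate chain, the enzyme whose action comes before all later modifications. It had 7620 and 9070 normalized counts in FF replicates 1 and 2 and 2743, 2436 and 2733 in RF replicates 1, 2 and 3. The groups lay far apart, with the lower FF library well above the highest RF library and little spread among the RF hens. This was 3.16-fold higher in FF hens, a log2 fold change of 1.66 (SE 0.13, limma adjusted p = 0.0115). The group values were 8345 ± 1025 (SD, n = 2) and 2637 ± 174 (SD, n = 3).

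TPST1 (ENSGALG00000002598) encodes a Golgi enzyme that sulfates tyrosines of secreted and membrane proteins, among them, in mammals, receptors of glycoprotein hormones. Its values were 2193 and 2114 in FF hens and 455, 599 and 594 in RF hens. The FF libraries were nearly equal, and RF replicate 1 was the lowest of the 5. TPST1 was 3.95-fold higher in FF hens, with a log2 fold change of 1.98 (SE 0.17, limma adjusted p = 0.0129). TPST2, the other tyrosylprotein sulfotransferase, had 303 and 233 in FF hens and 361, 317 and 259 in RF hens, so that its groups overlapped. Its log2 fold change was −0.22, with a 95% interval from −0.78 to 0.34.

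CHST12 (ENSGALG00000004276) encodes a chondroitin 4-O-sulfotransferase, which adds sulfate to the N-acetylgalactosamine of chondroitin chains. It had 2575 and 2158 normalized counts in FF hens and 887, 760 and 852 in RF hens. Both FF libraries were above every RF library by a wide margin. The difference was 2.83-fold, a log2 fold change of 1.50 (SE 0.15, limma adjusted p = 0.0206).

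CHST8 (ENSGALG00000004903) encodes a sulfotransferase that in mammals acts on the terminal N-acetylgalactosamine of N-linked sugars, among them those of luteinizing hormone in the pituitary, and not on proteoglycan chains. It had 270 and 326 normalized counts in FF hens and 82, 87 and 65 in RF hens. The groups did not overlap. CHST8 was 3.80-fold higher in FF hens, a log2 fold change of 1.92 (SE 0.26, limma adjusted p = 0.0289). The 4 calls were all lost without FF replicate 1 (adjusted p 0.169 to 0.192) or without FF replicate 2 (0.132 to 0.166). In those fits the spread came from the RF libraries alone, the lone FF library was assumed to vary like them, and 1 gene of the whole table passed in each. Without RF replicate 1 or RF replicate 2, NDST1 and TPST1 passed and CHST12 and CHST8 did not (0.0548 to 0.0914), with 23 and 33 genes of the whole table called. All 4 passed without RF replicate 3, and with each library left out in turn their log2 fold changes stayed between 1.38 and 2.06.

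**Figure D1:**
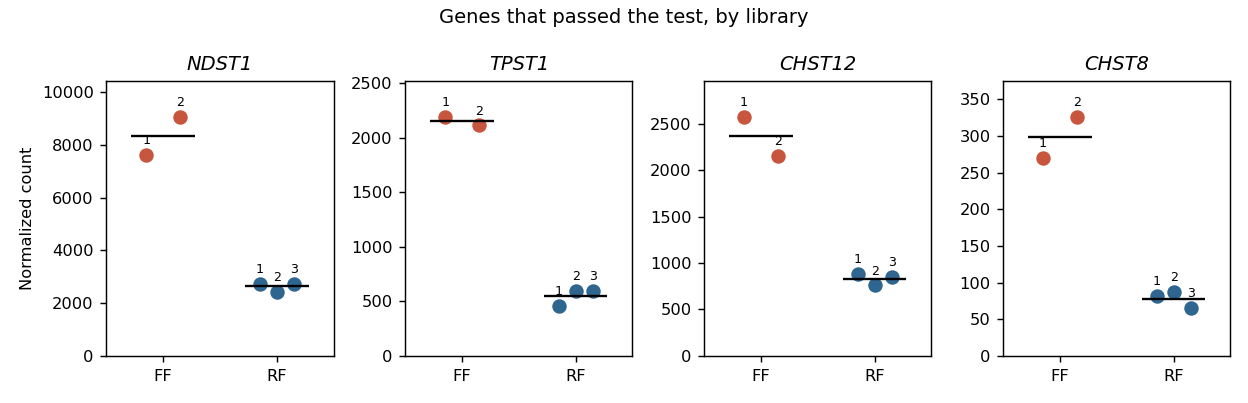
Normalized counts (vertical axis, from 0) of NDST1, TPST1, CHST12 and CHST8 in FF and RF hens. Each point is a library, numbered by replicate, and the black line is the group mean; both FF points lie above all 3 RF points in each panel, for NDST1 at 7620 and 9070 against 2436 to 2743.

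None of the 6 tested genes that begin and extend the heparan sulfate chain passed the test. The xylosyltransferases XYLT1 and XYLT2, which attach the first sugar of the linker, had log2 fold changes of 0.36 and 0.37 with overlapping groups. EXT1, which forms the heparan sulfate polymerase with EXT2, had 2095 and 2463 normalized counts in FF hens and 1657, 1650 and 1700 in RF hens. Values were nearly constant among RF hens and both FF libraries lay above them, without passing the test (log2 fold change 0.44, SE 0.13, limma adjusted p = 0.162). EXTL3 and EXTL2, which act at or near the start of the chain, had 0.20 and 0.25, with both FF libraries above the RF libraries as deposited but overlapping when libraries were rescaled to equal totals. EXT2 was at 0.10, and at −0.04 with equal totals.

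Among the later modifications of heparan sulfate, NDST1 alone passed the test of 9 tested genes. GLCE, the epimerase that turns glucuronic into iduronic acid, had a log2 fold change of 0.24, and the O-sulfotransferases HS2ST1, HS6ST1 and HS6ST2 had 0.15, 0.23 and 0.17, none with an adjusted p below 0.401. The 3-O-sulfotransferases, which make the rarest sulfation of the chain, did not share a direction. HS3ST1, whose product in mammals makes the binding site for antithrombin, had 369 and 446 normalized counts in FF hens and 693, 553 and 841 in RF hens. Both FF libraries were below all RF libraries, without passing the test (log2 fold change −0.76, SE 0.22, limma adjusted p = 0.162). HS3ST5 had 114 and 182 in FF hens and 184, 277 and 330 in RF hens, with FF replicate 2 and RF replicate 1 almost equal (log2 fold change −0.83, adjusted p = 0.266).

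HS3ST3A1, also a 3-O-sulfotransferase, had 1278 and 1493 normalized counts in FF hens and 468, 1604 and 252 in RF hens. RF replicate 2 was the highest of the 5 libraries, so the groups overlapped, with a log2 fold change of 1.26 and an interval from −0.39 to 2.92. NDST3 was between 2 and 40 in the RF libraries alone and at 14 and 11 in FF hens. Genes below the minimum for testing were HS3ST2, listed at 0 in all libraries, HS3ST4 and HS3ST6, at no more than 2, NDST4, at 3 to 6, and CHST9, at 3 and 5 in FF hens and 13, 9 and 8 in RF hens. In the RefSeq gene order of the GRCg7b assembly, used here for order and not for position, NDST3 lies next to NDST4, HS3ST2 next to HS3ST4, and HS6ST2, GPC4 and GPC3 follow each other. Whether the authors' counting split reads between related genes, such as B3GAT1 and B3GAT1L, was not tested.

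**Figure D2:**
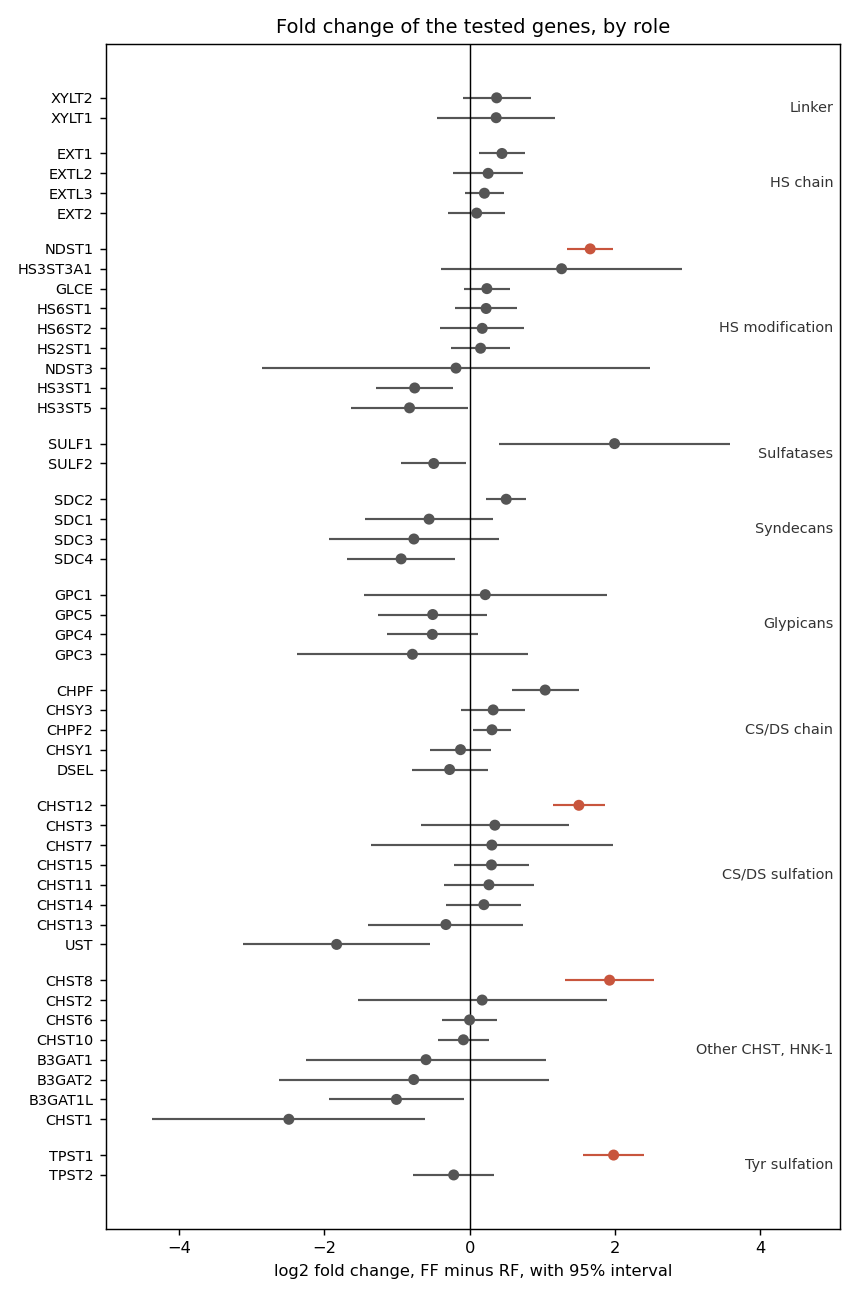
Log2 fold change (horizontal axis, FF minus RF) of the 48 tested genes with its 95% interval from limma, ordered by role (HS, heparan sulfate; CS/DS, chondroitin and dermatan sulfate). Red marks the 4 genes past an adjusted p of 0.05, all to the right of 0 with intervals from 1.14 upwards; the intervals of NDST3, CHST1 and B3GAT2 are the widest.

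The extracellular sulfatases, which remove 6-O-sulfates from finished heparan sulfate, lay in opposite directions. SULF1 had 2751 and 1712 normalized counts in FF hens and 240, 487 and 1378 in RF hens. Both FF libraries were above the RF libraries, but RF replicate 3 was much nearer to them than RF replicate 1 was. Its log2 fold change was 1.99, with an SE of 0.67 and an interval from 0.40 to 3.58, and did not pass the test (limma adjusted p = 0.2). Without RF replicate 3 it was 2.66 (adjusted p = 0.0454), without RF replicate 1 it was 1.40 (0.313), and with the other libraries left out in turn it was 1.65 to 2.34 (0.341 to 0.508). SULF2 had 2140 and 2797 in FF hens and 3065, 3230 and 4130 in RF hens, with −0.49 as log2 fold change (adjusted p = 0.236). The log2 ratio of SULF1 to SULF2 was 0.36 and −0.71 in FF hens and −3.67, −2.73 and −1.58 in RF hens.

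The carriers of heparan sulfate on the cell surface also did not share a direction. SDC2, a transmembrane syndecan, had 12761 and 12229 normalized counts in FF hens and 9298, 8945 and 8236 in RF hens. The spread within each diet was small and the groups did not overlap (log2 fold change 0.50, SE 0.12, limma adjusted p = 0.0969). SDC4, a syndecan of focal adhesions, had 4848 and 3225 in FF hens and 6989, 5632 and 11141 in RF hens, the highest value in RF replicate 3. Its log2 fold change was −0.94 (SE 0.31, adjusted p = 0.195). SDC1 had 426 and 472 in FF hens and 998, 729 and 396 in RF hens, with RF replicate 3 below both FF libraries, and SDC3 was at 9 and 10 in FF hens and 12 to 22 in RF hens. The log2 ratio of SDC2 to SDC4 was 1.40 and 1.92 in FF hens and 0.41, 0.67 and −0.44 in RF hens.

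Of the glypicans, which are held to the membrane by a lipid anchor, GPC4 and GPC5 had log2 fold changes of −0.51 each, with adjusted p values of 0.364 and 0.45 from limma. GPC5 was at 43 and 37 normalized counts in FF hens and 59, 62 and 51 in RF hens, without overlap. GPC3 was at 6 and 11 in FF hens and 25, 18 and 7 in RF hens, with overlap. GPC1 had 1120 in FF replicate 1 and 240 in FF replicate 2, against 563, 668 and 237 in RF hens. The interval of its log2 fold change ran from −1.45 to 1.88.

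Of the 5 tested genes of chondroitin and dermatan chain building, none passed the test. CHPF, the chondroitin polymerizing factor, came nearest, with 4516 and 3659 normalized counts in FF hens and 2181, 2236 and 1586 in RF hens. Its groups did not overlap, and its log2 fold change was 1.04 (SE 0.19, limma adjusted p = 0.0631). Its relative CHPF2 had 4438 and 4580 in FF hens and 3575, 3647 and 3708 in RF hens, a small difference with little spread (log2 fold change 0.31, adjusted p = 0.217). The chondroitin synthases CHSY3 and CHSY1 had 0.32 and −0.13, and DSEL, related to dermatan sulfate epimerase, had −0.28.

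In the sulfation of these chains CHST12 stood beside 7 genes that did not pass. CHST11, which like CHST12 sulfates position 4 of N-acetylgalactosamine, had 1899 and 2398 normalized counts in FF hens and 1405, 1602 and 2483 in RF hens, with the highest value in RF replicate 3 (log2 fold change 0.27, interval −0.35 to 0.88). CHST14, the dermatan 4-O-sulfotransferase, and CHST15, which adds a further sulfate to chondroitin that is already 4-sulfated, had 0.20 and 0.30, and CHST3 and CHST7, the 6-O-sulfotransferases, 0.35 and 0.31. CHST13, at 20 to 40 in the 5 libraries, had −0.33. UST, which sulfates the uronic acid of these chains, had 9 and 31 in FF hens and 70, 53 and 66 in RF hens. Its log2 fold change of −1.83 (SE 0.54, limma adjusted p = 0.162) lay below those of the other 7, and without FF replicate 1 it was −0.99.

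Among the remaining sulfotransferases and the enzymes of the HNK-1 epitope, a sulfated sugar of adhesion molecules, CHST8 was the gene that passed. CHST6 and CHST10, which in mammals sulfate keratan sulfate and HNK-1, had log2 fold changes of 0.00 and −0.09, with intervals from −0.37 to 0.37 and from −0.44 to 0.27. CHST1, a keratan sulfate enzyme in mammals, was at 2 and 5 normalized counts in FF hens and 13, 59 and 15 in RF hens, so that its log2 fold change of −2.49 (adjusted p = 0.182 from limma) rested on few counts. B3GAT1L, related to the HNK-1 glucuronyltransferase B3GAT1, had 64 and 84 in FF hens and 224, 147 and 99 in RF hens (log2 fold change −1.01, adjusted p = 0.244). B3GAT1 itself was at 5 to 24 in the 5 libraries.

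In 13 of the 48 genes both FF libraries lay above every RF library, and in 9 both lay below. These were 27.1% and 18.8% of the genes, and the same held for 19.3% and 16.9% of all tested genes, so that both shares were near the background. When libraries were rescaled to equal totals, which took the median of all tested genes to −0.13 on the log2 scale, the counts were 9 above and 13 below, or 18.8% and 27.1%, against 10.9% and 27.3% of all tested genes, and EXT2 was the gene whose direction changed. Within families, 5 log2 ratios were compared between the diets, chosen after the values had been seen: TPST1 to TPST2, CHST12 to CHST11, CHPF to CHPF2, SULF1 to SULF2 and SDC2 to SDC4. In each the FF libraries did not overlap the RF libraries, with differences of 2.20, 1.24, 0.73, 2.49 and 1.44 on the log2 scale. The exact permutation test, two-sided, gave p = 0.2 for each, before and after adjustment over the 5, which is the smallest p that it can give for 2 libraries against 3.

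**Figure D3:**
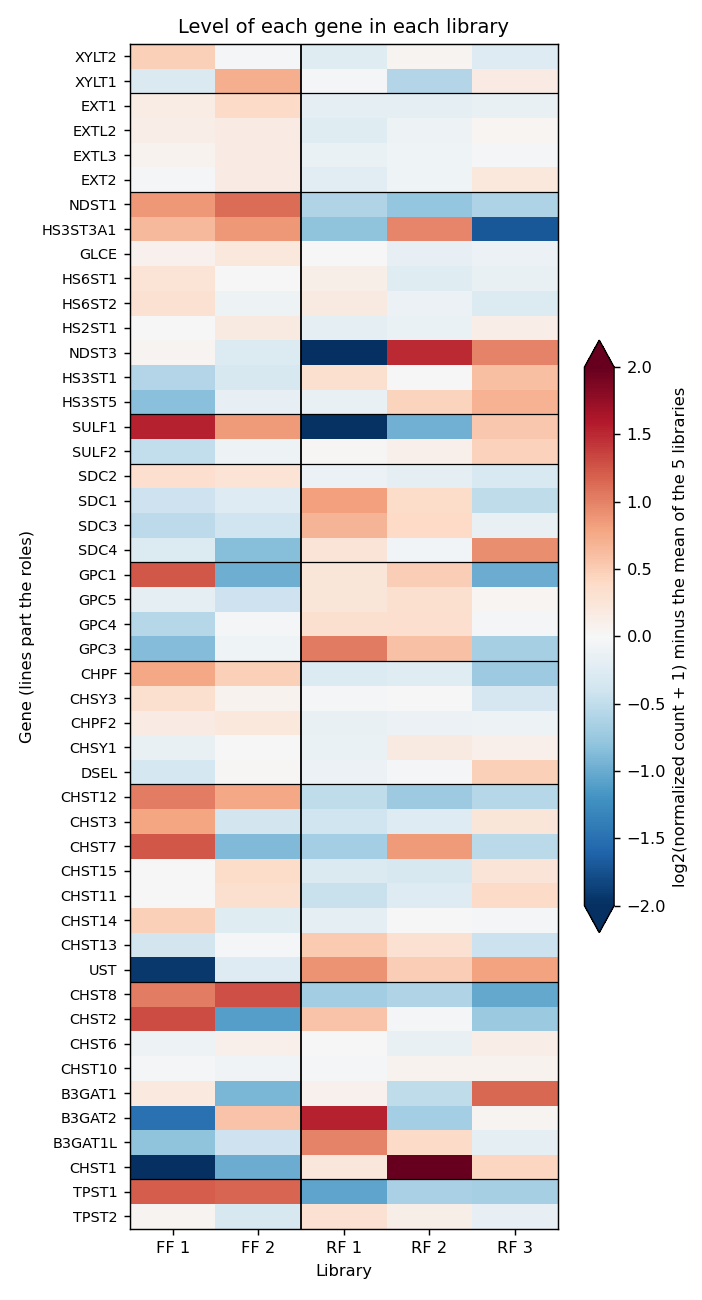
Level of each of the 48 tested genes in the 5 libraries, as log2(normalized count + 1) minus the mean of the 5 (colour, from −2 in blue to 2 in red), with genes in rows by role and libraries in columns. NDST1, CHST12, CHST8 and TPST1 are red in both FF columns and blue in all 3 RF columns, while rows such as HS3ST3A1, GPC1 and B3GAT2 change colour inside a diet.

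Several genes differed more between hens on the same diet than between diets. Among 41 genes that averaged at least 50 normalized counts, 6 had more than a 2-fold range between the FF libraries and 8 among the RF libraries, while the median range was 1.21-fold and 1.35-fold. CHST2, a sulfotransferase of N-acetylglucosamine, had 360 and 67 normalized counts in FF replicates 1 and 2 and 215, 142 and 86 in RF hens. CHST7 had 1140 and 259 in FF hens and 300, 864 and 328 in RF hens. In GPC1, CHST7 and CHST2 FF replicate 1 was the highest of the 5 libraries and 4.67, 4.40 and 5.37 times as high as FF replicate 2. B3GAT2, a glucuronyltransferase of the HNK-1 epitope, had its higher FF value in replicate 2, with 189 and 800 in FF hens and 1554, 336 and 559 in RF hens. The highest B3GAT2 value was that of RF replicate 1. In that library 10 of 15 theca and stroma markers and 7 of 9 oocyte marker entries, with ZAR1 entries counted separately, were also highest. The same held for 3 of 6 endothelial and 3 of 6 white blood cell markers. The part of those cells was not tested.

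**Figure D4:**
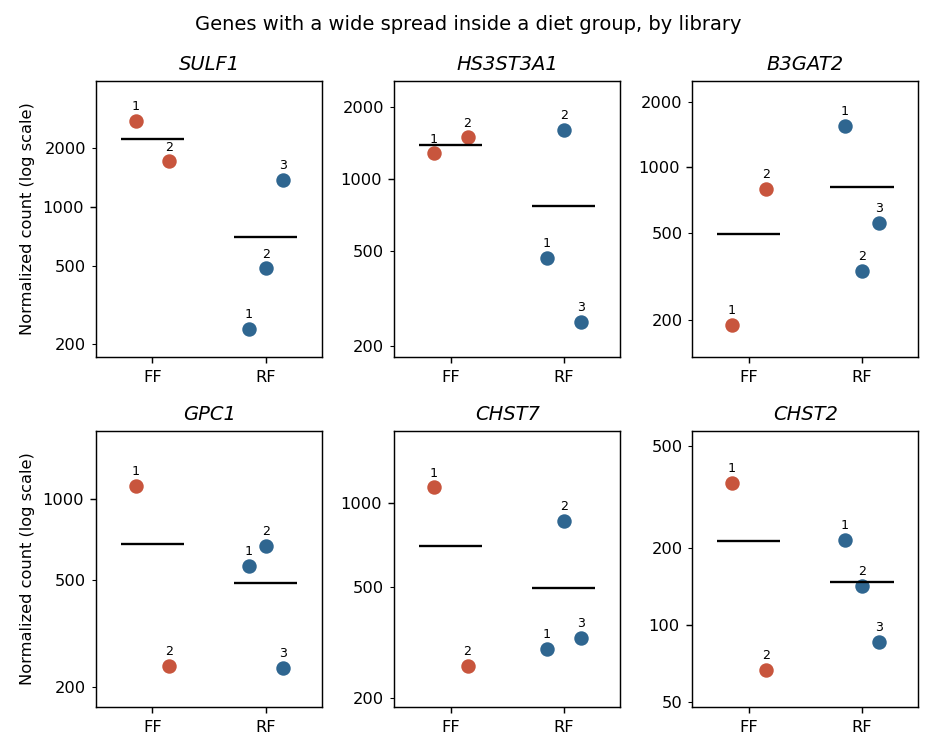
Normalized counts (vertical axis, log scale) of 6 genes with a wide range inside a diet. Each point is a library, numbered by replicate, and the black line is the group mean; for GPC1, FF replicate 1 is at 1120 and FF replicate 2 at 240, and for HS3ST3A1 the RF libraries run from 252 to 1604.

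Further genes of the pathway, outside the symbols above, were listed by role. The roles were sugar supply and linker, supply of the sulfate donor, other core proteins, hyaluronan, breakdown, and FGF ligands and receptors. The FGF list was included because ligands and receptors of this family bind together with heparan sulfate. It also held FGF12 and FGFBP2, for which this is not claimed. Of 76 tested genes in these lists, 1 was significantly higher in FF hens and 0 lower in limma, beside 0.842% and 0.241% of all tested genes. At an unadjusted p of 0.05, 9 were higher and 9 lower, or 11.8% each, against 9.58% and 8.22% of all tested genes, and the median log2 fold change was 0.02. The gene that passed was CSPG5, a transmembrane chondroitin sulfate proteoglycan known from the brain. It had 53322 and 31475 normalized counts in FF hens and 10755, 14991 and 15070 in RF hens, a log2 fold change of 1.61 (SE 0.26, limma adjusted p = 0.0498). Its call lay at the threshold and was lost with each of the 5 libraries left out in turn (adjusted p 0.068 to 0.239).

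Of the genes that supply sugar and sulfate, none passed the test, and SLC35D1, UXS1 and PAPSS2 came nearest. SLC35D1, which carries nucleotide sugars for chondroitin into the endoplasmic reticulum, had 3422 and 3435 normalized counts in FF hens and 1931, 1597 and 2058 in RF hens (log2 fold change 0.89, adjusted p = 0.053 from limma). UXS1, which makes the xylose donor of the linker, had 3642 and 3139 in FF hens and 1511, 2008 and 2189 in RF hens (log2 fold change 0.85, adjusted p = 0.09). PAPSS2, a synthase of PAPS, the sulfate donor of all sulfotransferases named here, had 1138 and 595 in FF hens and 304, 393 and 263 in RF hens, a log2 fold change of 1.38 (SE 0.32, adjusted p = 0.0953). The groups of PAPSS2 did not overlap, whereas its relative PAPSS1 had 5045 and 6347 against 4723, 3977 and 7002, with a log2 fold change of 0.15. BPNT1, which clears the by-product of that donor, was at 0.53 (adjusted p = 0.202).

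Of the core proteins with other symbols, 12 of 18 tested genes had a log2 fold change below 0, with a median of −0.56, and none passed the test downwards. NRP1, a coreceptor that can carry these chains, had 8 and 5 normalized counts in FF hens and 197, 134 and 26 in RF hens (log2 fold change −3.61, adjusted p = 0.0996 from limma), and the adjusted p was 0.0277 without RF replicate 3 (log2 fold change −4.48) and 0.215 to 0.303 with each other library left out. OGN, a small leucine-rich proteoglycan of connective tissue, had 1 and 0 in FF hens and 285, 5 and 13 in RF hens. OGN and NRP1 were both highest in RF replicate 1, as were most theca and stroma markers and most oocyte markers. PRELP, also of the core protein list, had 2050 and 1406 in FF hens and 4914, 2844 and 3848 in RF hens, with RF replicate 1 again the highest. Its log2 fold change was −1.15 (adjusted p = 0.0953 from limma). Of the 18 core protein genes, 5 had both FF libraries below every RF library and 2, CSPG5 and SPOCK2, had both above. The same held for 16.9% and 19.3% of all tested genes. SPOCK2 had 816 and 503 in FF hens and 411, 367 and 194 in RF hens (log2 fold change 1.05, adjusted p = 0.216 from limma). Of the FGF list, 9 of 11 tested genes had a log2 fold change below 0, as did 49.0% of all tested genes. FGFR2, an FGF receptor, had 224 and 234 in FF hens and 408, 550 and 986 in RF hens (log2 fold change −1.40, adjusted p = 0.121), and FGF2, a ligand of FGF receptors, was at 8 and 17 and at 23, 31 and 51 (log2 fold change −1.43, adjusted p = 0.236). FGFR2 did not pass in limma, but the study itself listed it, by DESeq2, among the genes higher in RF hens. FGFR1, also a receptor, had 24471 and 18005 in FF hens and 16387, 14473 and 14809 in RF hens, with both FF libraries above and a log2 fold change of 0.47 (adjusted p = 0.212).

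Lists of hyaluronan and breakdown genes held no gene that passed. HAPLN3, a link protein of hyaluronan, had 1448 and 1406 normalized counts in FF hens and 1103, 856 and 580 in RF hens (log2 fold change 0.80, adjusted p = 0.198 from limma). HGSNAT, a lysosomal enzyme of heparan sulfate breakdown, had 412 and 330 in FF hens and 580, 489 and 513 in RF hens (log2 fold change −0.51, adjusted p = 0.227).

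**Figure D5:**
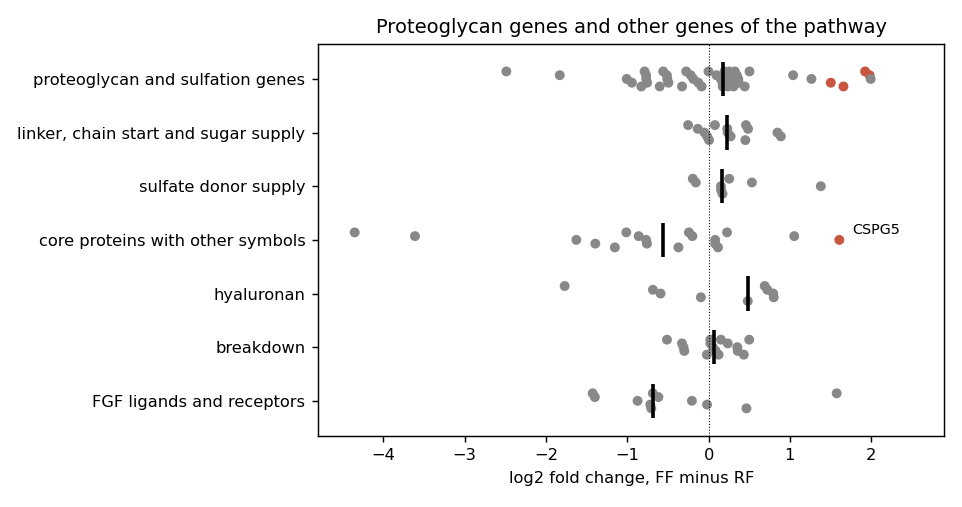
Log2 fold change (horizontal axis, FF minus RF) of the 48 genes and of the tested genes of 6 further lists of the pathway. Each point is a gene, red where the adjusted p was under 0.05, and black bars are list medians, from −0.69 for FGF ligands and receptors to 0.48 for hyaluronan; CSPG5 is the only red point outside the first row.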

How the data were processed

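Granulosa cell RNA of 2 FF and 3 RF hens, a library per hen, was sequenced by the authors as directional poly(A) libraries. The authors used Trim Galore for trimming, STAR for alignment to galGal6, and DESeq2 for normalization. The read counter and its strand setting were not named in the sources. What the authors deposited are DESeq2-normalized counts rounded to whole numbers, handled here as a score and not as raw counts. In 3 of the 5 libraries every whole number from 1 to 30 occurs, so that a read was worth about 1 normalized count or less, rounding could merge read counts, and no count model was run. Replicate counts per diet are 2 and 3, and this limits the precision of every value.

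Genes with a mean of at least 10 (13305 of 24356) were tested with limma 3.58.1 (R 4.3.3), as FF minus RF of log2(value + 1), with the variance trended on the mean, on 3 residual and 3.71 prior degrees of freedom. The code was tested on simulated data. The genes and lists were chosen with earlier results of these data known. Genes named with values are those past an adjusted p of 0.05 and those whose groups do not overlap with a log2 fold change beyond 0.5. The others of each role are given more briefly. Each further list adds up to 2 with the largest change among those that do not overlap. XYLT1, EXT1, TPST2 and other relatives, HYAL1, HYAL2, HPSE, PAPSS1, FGFR1, PRELP, SPOCK2 and the widely spread genes were described after their values were seen. Alternatives changed the pseudocount, the minimum mean, the scaling, the variance model and the replicate block, or left out a library. Figures used matplotlib 3.10.9 in Python 3.11.15, and permutation tests scipy 1.17.1. Of the 53 symbols, 52 matched the RefSeq table of GRCg7b, which was used for gene order alone because its build differs. No sequences or coordinates are given. A gene of the breakdown list that the rule names is not reported here.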

Additional observations from a re-analysis of the deposited data

How the results depend on the processing

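NDST1, TPST1, CHST12 and CHST8 kept their direction in every alternative run, with log2 fold changes of 1.37 to 2.06. The count of 4 higher genes was also found with pseudocounts of 0.5 and 8, a minimum mean of 50, equal totals, equal upper quartiles and robust variance. It was 2 with no minimum mean, where NDST1 and TPST1 remained among 14 genes called in the whole table (144 as reported), and 0 in limma without the trend, where no gene of the table passed and adjusted p values were 0.0655 to 0.079. Leaving out a library gave 0 to 5 higher genes, SULF1 being the fifth without RF replicate 3, and 0 lower genes throughout, while the whole table had 1, 1, 23, 33 and 128 called genes without FF replicates 1 and 2 and RF replicates 1, 2 and 3. Of the genes outside the chosen symbols, the count of 1 higher gene became 2 with a minimum mean of 50, where SLC35D1 joined at an adjusted p of 0.0486, and 0 with no minimum mean, with no trend, with a pseudocount of 0.5, with robust variance and with each library left out. The count of lower genes was 0 to 1 without a library, the gene being NRP1, whose log2 fold change ran from −4.48 to −2.79 over all alternatives. With the replicate number as a block, where RF replicate 3 has no partner and adds nothing, 3 of the 4 genes passed (CHST8 at an adjusted p of 0.0761), and outside the chosen symbols 0 genes were higher and 1, NRP1, lower. Deviations from the group means correlated across genes at 0.11 for number 1 and −0.07 for number 2, and at −0.17 to 0.17 for unlike numbers. The deviations of the 2 FF libraries are exact opposites, so these values cannot tell whether the numbers paired the hens. None of the genes whose fold change was followed through the alternatives changed direction. For the genes of each role given more briefly, direction was compared under the rescalings alone, where EXT2 changed direction with equal totals. A count model was planned only if whole reads could be recovered, and was not run. The causes of these shifts were not tested.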

Other observations

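HYAL1 and HYAL2, which split hyaluronan, and HPSE, heparanase, which cuts heparan sulfate, were highest in FF replicate 1 of the 5 libraries. HYAL1 had 2155 and 629 normalized counts in FF replicates 1 and 2 and 673, 759 and 591 in RF hens, HYAL2 had 2044 and 680 against 852, 771 and 593, and HPSE had 1577 and 617 against 731, 972 and 647. FF replicate 2 lay within the range of the RF hens in HYAL2 and in HYAL1, and below it in HPSE. This was the same library split as in GPC1, CHST7 and CHST2, and none of the 3 genes had an adjusted p below 0.43 from limma.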
